A study of Mus musculus with 50 samples.

Results

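The 10 thapsigargin libraries of this study, 5 collected after 1 h and 5 after 8 h, were compared to separate genes of the early response from genes of the late response. They were chosen by their treatment and hour labels from 50 libraries of cultured mouse oligodendrocyte-lineage cells, and the 10 untreated libraries of the same hours served as the reference. Each hour and treatment held 2 wild-type and 3 Nrf2 -/- libraries, all on the C57BL/6 background. Nrf2 -/- cells lack the transcription factor NRF2, which the gene Nfe2l2 encodes, so by their titles both the treated and the untreated groups mix these genotypes in the same numbers, with a doubt about 1 untreated library of 8 h given below.

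Per the labels, progenitors were immunopanned from the cortices of pups aged 6 days, taken through 2 passages and left to differentiate for 12 to 14 h, after which plates were assigned at random. The tissue tag names whole brain, which differs from that protocol. The labelled thapsigargin concentration was 200 µM, and the hours count from the start of treatment. Nothing in the labels says whether libraries of a group came from separate cultures or animals, so the p-values speak only of the scatter among libraries, and that scatter may be technical. The design text gives 4 mutant replicates per time point, and 3 are present.

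Thapsigargin blocks the SERCA pumps that fill the endoplasmic reticulum (ER) with calcium, so the store empties and protein folding in the ER fails. The unfolded protein response then acts through PERK, which raises translation of ATF4 and its target CHOP, through ATF6, which drives ER chaperone genes, and through IRE1, which splices the XBP1 mRNA. A rise of cytosolic calcium and of kinase signalling also switches on immediate early genes, whose transcripts appear without new protein synthesis and are usually short lived. Myelinating oligodendrocytes make large amounts of membrane lipid and protein in the ER and are known to be sensitive to ER stress.

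The 20 libraries held 33.8 to 38.3 M counted reads. Nfe2l2 was at 5.31 to 17.7 CPM (reads scaled to the size of the library) in the wild-type libraries and at 0.187 to 0.882 CPM in the mutant libraries, with 1 exception. Replicate 3 of the untreated 8 h libraries labelled Nrf2 -/- stood at 8.10 CPM. Another 2 libraries, Nrf2 -/- replicate 2 of the untreated and of the thapsigargin group at 8 h, carry a mutant title and a wild-type genotype tag, and Nfe2l2 was low in both. The oligodendrocyte lineage genes Sox10, Olig2 and Pdgfra were present in every library. Of 13 microglia markers 11 were too low to test, and Aif1, C1qa, C1qb, C1qc, Tyrobp and Trem2 had no read in any of the 20 libraries. The number of libraries with a high level of Xist, an RNA made in female cells, was 2 of 5 in each condition. All of these libraries were labelled Nrf2 -/-, and the wild-type libraries stood at 0.366 to 12.1 CPM of Xist.

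Of 15590 genes tested, 10591 (67.9%) differed between 8 h and 1 h of thapsigargin, 5160 higher and 5431 lower at 8 h (edgeR quasi-likelihood test, adjusted p below 0.05). Untreated cells also changed over these hours, with 6015 genes (38.6%) called, but the changes were smaller: the median absolute log2 difference over all tested genes was 0.44 with thapsigargin and 0.20 without. All libraries of 1 h are numbered before all libraries of 8 h, so hour and library order cannot be told apart within a treatment. With a change of at least 2-fold, 3360 genes were called with thapsigargin (9.41% higher and 12.1% lower) and 593 without (0.693% higher and 3.11% lower). The thapsigargin change minus the untreated change, which is the interaction of treatment and hour, was called for 9187 genes (58.9%). Of the 3360 genes, 2854 (84.9%) were called in the same direction in that interaction, 504 (15%) were not called in it, and 2 were called in the opposite direction. For 215 of the 3360 (6.4%) the untreated cells had themselves changed at least 2-fold in the same direction.

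The response was small in number at 1 h and broad at 8 h. Against untreated cells of the same hour, 3406 genes (21.8%) were called at 1 h and 10862 (69.7%) at 8 h, and 176 and 3581 of these passed 2-fold. At 1 h these were 0.853% of all genes higher and 0.276% lower, and at 8 h 11.8% and 11.2%. In the libraries themselves, all 5 treated values lay above all 5 untreated ones for 9.79% of genes at 1 h and 26.1% at 8 h, and below them for 7.7% and 28.2%. Scaled by total counts alone, the share of called genes that were higher moved from 48.7% to 36% for the thapsigargin interval, from 55.1% to 42% for the untreated interval and from 54.1% to 65.5% for the response at 1 h. The median difference over all genes in the thapsigargin interval moved from -0.01 to -0.16 (log2) with that scaling. Of the 9230 genes called with both scalings in that interval, 0 had the opposite sign.

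**Figure D1:**
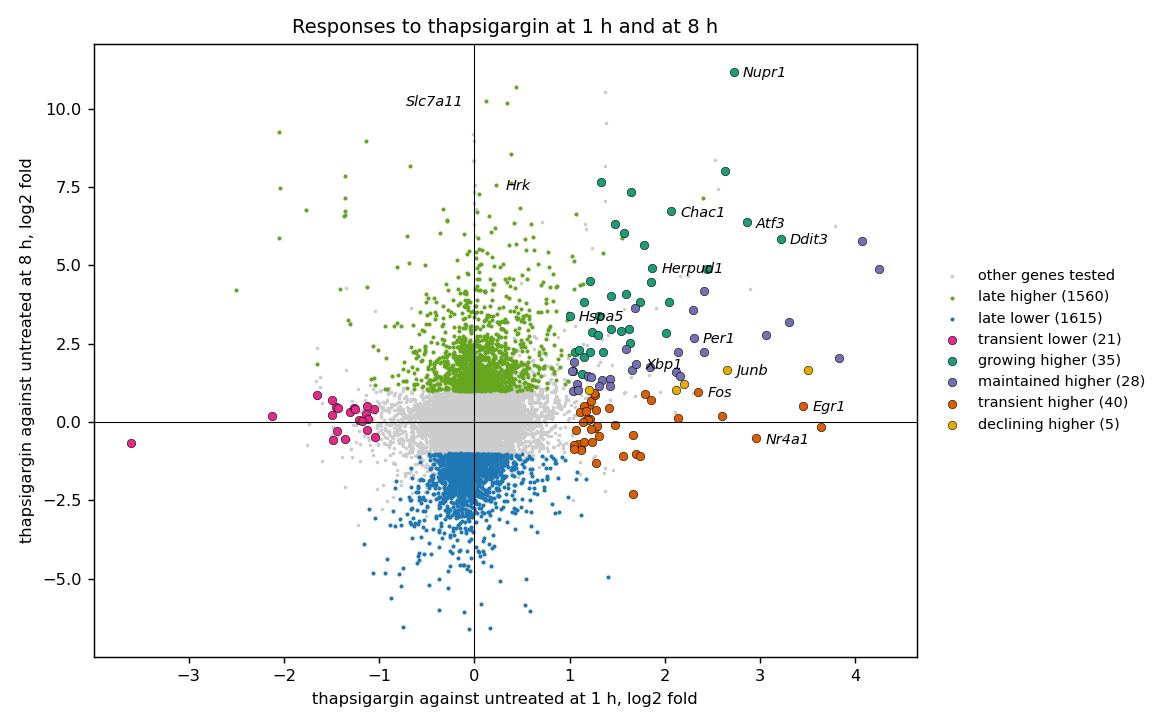
Response to thapsigargin at 8 h (vertical axis, log2 thapsigargin minus untreated) against the response at 1 h (horizontal axis, same scale), 1 point per tested gene, coloured by the kinetic class described in the text. Most points of the late classes lie near 0 on the horizontal axis, and the few points far to the right include the immediate early genes.

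Genes were sorted into classes by their response at both hours and by the interaction, with a 2-fold minimum for a response. These measures share libraries, so the classes are descriptions and carry no test of their own. Among genes higher with thapsigargin, 40 (0.257% of those tested) were transient, meaning at least 2-fold higher at 1 h, with a negative interaction and below that size at 8 h. Another 5 (0.0321%) were declining but still at least 2-fold higher at 8 h, 28 (0.18%) were maintained at both hours, and 35 (0.225%) were growing, meaning higher at 1 h with a larger response at 8 h. By far more, 1560 (10%), were late, with a response of at least 2-fold first seen at 8 h. Among genes lower with thapsigargin, 21 (0.135%) were transient, 2 (0.0128%) were maintained and 1615 (10.4%) were late. The remaining classes were 8 genes (0.0513%) higher at 1 h and lower at 8 h, and 7 genes (0.0449%) that did the reverse.

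Immediate early genes led the response at 1 h. Of 42 listed, 38 could be tested, and 34 of the 38 were higher with thapsigargin at 1 h, against 11.8% of all genes, with none lower. Their median log2 response was 1.24, and the median over all tested genes was -0.03. Between 1 and 8 h of thapsigargin 27 fell and 5 rose, against 34.8% of all genes lower, but 24 of the 38 also fell in untreated cells, where 17.3% of all genes did. Relative to the untreated change 21 fell and 10 rose (30.7% and 28.2% of all genes). At 8 h 23 were higher than in untreated cells and 4 were lower, where 34% and 35.7% of all genes were. Fosl1, Klf2, Ccn2 and Npas4, at no more than 0.187 CPM in any library, were not tested.

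The early growth response factors and the orphan nuclear receptor Nr4a1 rose and returned. Egr1, a zinc-finger transcription factor, stood at 94.7 and 58.6 CPM in the wild-type and at 62.2, 55.6 and 65.0 CPM in the mutant thapsigargin libraries at 1 h. By 8 h it was at 1.54, 2.06, 1.79, 1.91 and 1.93 CPM in the same order, while untreated libraries fell from 8.27, 3.32, 8.35, 4.93 and 5.84 to 0.697, 1.05, 1.33, 1.15 and 2.21 CPM. All thapsigargin libraries of 1 h lay above every other library, and at 8 h treated and untreated libraries overlapped. The thapsigargin interval was a log2 change of -5.18 ± 0.28 (SE) against -2.26 ± 0.30 in untreated cells, with an interaction of -2.92 ± 0.43 (adjusted p = 1.74e-05). Untreated cells thus showed part of this fall, and the interaction was not called with wild-type libraries alone (adjusted p = 0.0622). Egr2 followed the same course, from a mean of 23.03 ± 3.88 (SD, n = 5) to 0.619 ± 0.307 CPM with thapsigargin and from 3.80 ± 0.989 to 0.533 ± 0.231 CPM without.

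Nr4a1 fell below its untreated level. Its libraries were at 88.5, 75.4, 74.4, 71.8 and 80.1 CPM at 1 h of thapsigargin and at 6.72, 6.30, 7.68, 8.20 and 8.55 CPM at 8 h. Untreated libraries were at 10.01, 11.3, 8.84, 10.4 and 9.68 CPM at 1 h and at 10.7, 10.04, 8.78, 11.6 and 12.6 CPM at 8 h, where they lay above all treated ones. The untreated change of Nr4a1 was 0.10 ± 0.10 and its interaction -3.48 ± 0.14 (adjusted p = 4.53e-16), and no change of Nr4a1 was called in untreated cells. Gadd45g, a stress sensor of the growth arrest family, likewise went from 150 ± 25.4 to 37.8 ± 4.30 CPM (SD, n = 5) with thapsigargin, with an untreated log2 change of 0.03 ± 0.13.

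Members of the AP-1 factor family returned only in part. Fos stood at 384, 335, 403, 399 and 359 CPM at 1 h and at 120, 99.5, 118, 126 and 129 CPM at 8 h of thapsigargin. Untreated libraries held 90.0, 65.9, 81.2, 65.3 and 65.2 CPM at 1 h and 60.7, 57.2, 54.9, 66.7 and 64.7 CPM at 8 h. Treated libraries therefore lay above untreated ones at both hours, with log2 responses of 2.35 ± 0.10 and 0.96 ± 0.09 and an interaction of -1.39 ± 0.13 (adjusted p = 1.07e-08). Junb, another AP-1 subunit, fell from 95.5 ± 19.2 to 16.9 ± 2.37 CPM (SD, n = 5), but its untreated level fell as well, from 15.2 ± 3.44 to 5.33 ± 0.556 CPM, and its response was 2.65 ± 0.16 at 1 h and 1.67 ± 0.17 at 8 h. Csrnp1, a nuclear protein of the same early class, kept a response of 1.20 ± 0.16 at 8 h after 2.21 ± 0.14 at 1 h. Arrdc3, an arrestin-domain protein that was also declining, had an interaction of -0.17 ± 0.07 that lost its call in 23 of 33 alternative settings.

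Of 38 tested immediate early genes 11 were transient, where 0.257% of all genes were. These included Dusp5, a nuclear phosphatase that inactivates the kinase ERK. Dusp5 was at 4.54 ± 0.339 CPM at 1 h and 1.71 ± 0.549 CPM at 8 h of thapsigargin (SD, n = 5). Its promoter is shown because it carries adjacent CArG boxes, the letters that serum response factor is known to bind. The 200 bases before the RefSeq start site, chr19:53528945-53529144 (GRCm38.p6, plus strand), read as follows, with both CArG boxes in capitals, their first bases 82 and 72 bases before the start.
Dusp5: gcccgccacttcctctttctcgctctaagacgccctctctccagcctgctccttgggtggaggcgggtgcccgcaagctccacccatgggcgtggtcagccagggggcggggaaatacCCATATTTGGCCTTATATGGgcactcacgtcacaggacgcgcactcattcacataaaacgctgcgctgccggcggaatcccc
RefSeq windows from 250 bases before to 50 bases after a start were read on both strands. A CArG box was present in 7 of 39 windows of the immediate early genes (17.95%) and in 1.36% of the 14161 windows of tested genes. Several of the 7 were windows of 1 gene, Egr2. By gene it was present in 4 of 29 with a window, beside 180 of 11032 tested genes with a window. The cyclic AMP response element TGACGTCA was in 3 of the 39 (7.69%) and in 3.06% of all. The AP-1 motif TGANTCA was in 1 of the 39 (2.56%) and in 4.77% of all. A match of letters is a description and does not show that a factor was bound.

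Not every immediate early gene was transient. Per1, a repressor of the circadian clock, was at 39.6, 35.95, 32.2, 27.1 and 29.9 CPM at 1 h and at 32.4, 47.7, 39.5, 34.7 and 38.1 CPM at 8 h of thapsigargin, while untreated libraries ranged from 5.62 to 7.68 and from 4.64 to 9.52 CPM. The thapsigargin groups overlapped each other and lay above the untreated ones, and the interaction was not called ( 0.40 ± 0.24, adjusted p = 0.176). Ier2 behaved alike, with responses of 2.14 ± 0.12 and 2.24 ± 0.12. Other maintained genes kept their response while their level fell in treated and untreated cells together: the MAP kinase phosphatase Dusp10 changed by -0.61 ± 0.10 with and -0.62 ± 0.11 without thapsigargin, the growth arrest gene Gadd45b by -2.15 ± 0.17 and -2.12 ± 0.19, and Nfkbiz, a nuclear inhibitor of the NF-κB family, by -0.54 ± 0.12 and -0.77 ± 0.13. For Id3, an inhibitor of basic helix-loop-helix factors, these values were -0.34 ± 0.11 and -0.35 ± 0.12. A similar reading applies to Dusp1, a phosphatase of MAP kinases, and to Klf4, whose responses were larger at 8 h than at 1 h although their treated levels were lower: Dusp1 went from 14.6 ± 2.11 to 8.96 ± 1.73 CPM with thapsigargin and from 3.62 ± 0.738 to 1.24 ± 0.372 CPM without (SD, n = 5).

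**Figure D2:**
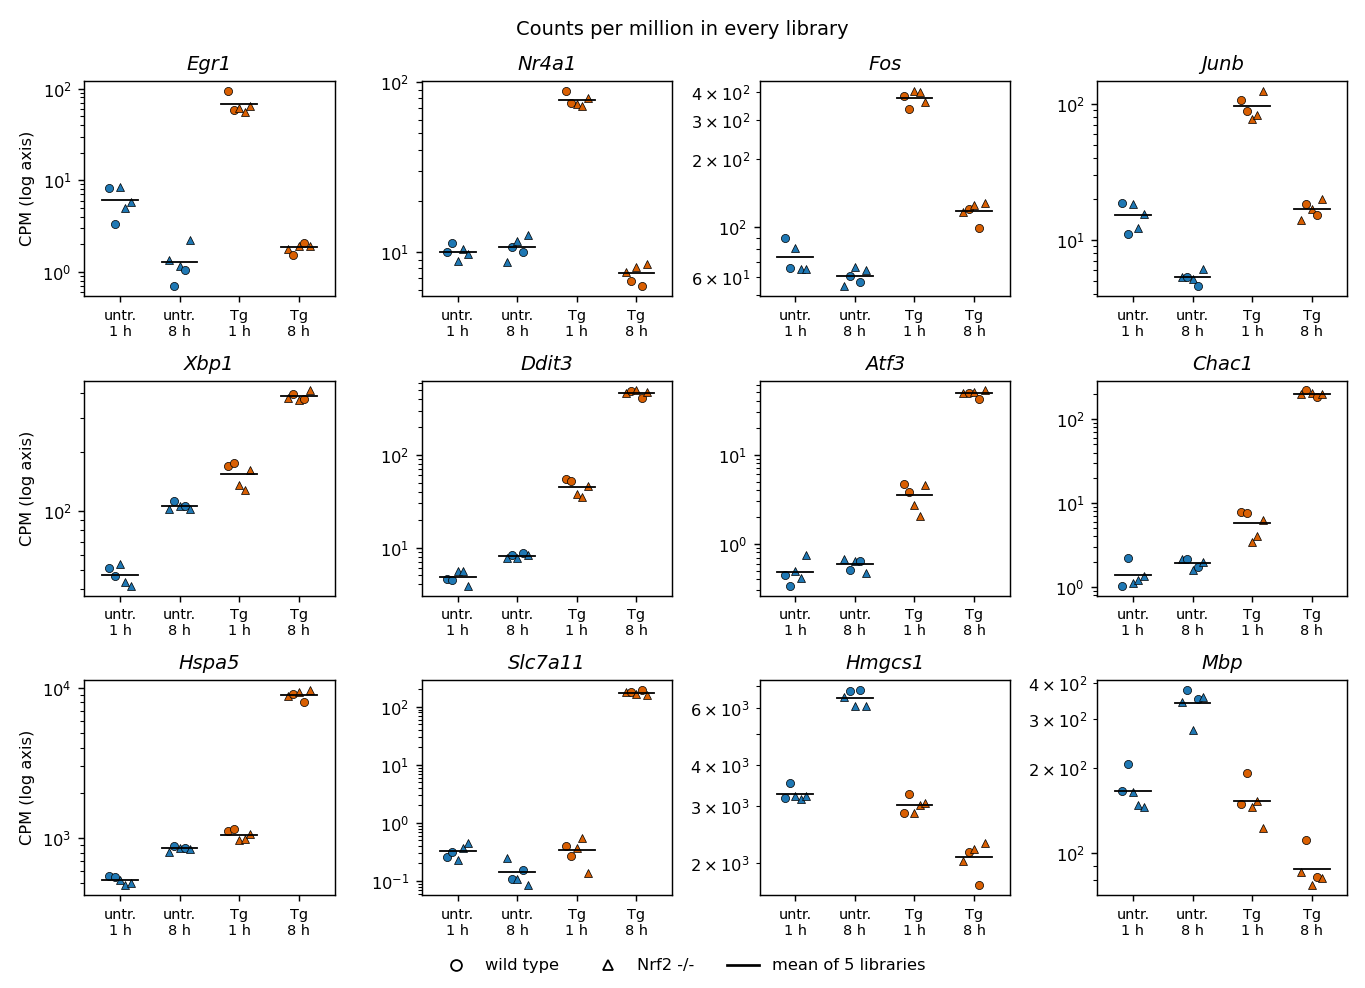
CPM of 12 genes in each of the 20 libraries, on a log axis, by condition; circles are wild-type and triangles Nrf2 -/- libraries, and the short bars are the means of 5. Egr1 and Nr4a1 peak at 1 h of thapsigargin, Xbp1 rises between hours in treated and untreated cells, Chac1, Hspa5 and Slc7a11 are highest at 8 h of thapsigargin, and Hmgcs1 and Mbp rise in untreated cells and fall in treated ones.

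Replication-dependent histone genes made up a further part of the transient class. They were looked at together after their values were seen. Of 59 tested, 49 were higher with thapsigargin at 1 h and none lower, and 51 fell against the untreated change, where 11.8% of all genes were higher at 1 h and 30.7% fell. Of the 40 transient genes 16 were histone genes, among them Hist1h1a, Hist1h1d, Hist1h3a and Hist1h3h. Thus 16 of the 59 tested histone genes were transient, where 0.257% of all genes were. Hist1h1a, a linker histone, was at 137, 106, 131, 129 and 158 CPM at 1 h and at 23.1, 20.3, 24.9, 26.5 and 25.5 CPM at 8 h of thapsigargin, and these groups did not overlap.

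The height of that histone rise rested in part on 1 library. The summed level of all histone genes was 1992 to 2542 CPM in untreated libraries of 1 h and 2980 to 5144 CPM in thapsigargin libraries of 1 h, with the top value in Nrf2 -/- replicate 3. It was 1269 to 1723 CPM at 8 h of thapsigargin and 1724 to 2157 CPM in untreated cells of 8 h. Hist1h3a was at 112 CPM in that library and at 45.9 to 50.5 CPM in the other 4. Without that library 26 genes were transient, 25 of them among the 40, and 4 were histone genes. Leaving out any other thapsigargin library of 1 h gave 38 to 43, with 14 to 17 histone genes. Hist1h2ab and Hist1h2ag, placed among the genes higher at 1 h and lower at 8 h, were also highest in that library, at 120 and 35.4 CPM against 31.6 to 41.9 and 7.06 to 10.3 CPM in the other 4. Histone copies are near identical, and how shared reads were counted is not given in the sources used here, so values of single histone genes are uncertain.

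Other transient genes were outside the lists and were singled out after their values were seen. Socs3, an inhibitor of cytokine receptor signalling, was at 535, 502, 418, 492 and 527 CPM at 1 h of thapsigargin and at 115, 94.7, 104, 117 and 118 CPM at 8 h. Untreated libraries were spread from 87.0 to 206 CPM at 1 h and from 58.0 to 74.1 CPM at 8 h. Its interaction of -1.13 ± 0.29 (adjusted p = 0.00296) was not called within either genotype alone. Bhlhe40, a repressor linked to the circadian clock, went from 62.7 ± 13.6 to 14.97 ± 2.87 CPM with thapsigargin and from 18.1 ± 1.99 to 8.09 ± 2.81 CPM without (SD, n = 5).

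Transient falls were fewer. Mex3b, an RNA-binding protein, was at 29.5, 33.6, 35.4, 36.6 and 33.4 CPM at 1 h of thapsigargin and at 64.5, 60.1, 62.0, 72.1 and 66.3 CPM at 8 h, while untreated libraries stayed between 79.0 and 99.6 CPM. Treated libraries lay below all untreated ones at both hours, with responses of -1.36 ± 0.06 and -0.52 ± 0.06 (adjusted p = 3.2e-13 and 7.05e-08). Ehbp1l1, an adaptor of vesicle traffic, had responses of -1.05 ± 0.09 and -0.49 ± 0.09. Mir17hg, the host transcript of the miR-17 cluster and singled out after its values were seen, fell by 1.49 at 1 h and by 0.58 at 8 h on the log2 scale, from untreated means of 74.0 and 66.7 CPM. Mx2, an interferon-induced GTPase likewise singled out, changed side: its thapsigargin mean was 59.5 ± 7.18 CPM at 1 h and 14.1 ± 1.57 CPM at 8 h, against 24.6 ± 1.34 and 29.6 ± 0.784 CPM in untreated cells (SD, n = 5).

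The regulators of the integrated stress response, the branch that runs through PERK and ATF4, were partly raised at 1 h and almost all raised further by 8 h. Of 20 tested, 11 were higher and 1 was lower at 1 h, and all 20 were higher at 8 h. Over all genes 11.8% and 10% were higher and lower at 1 h, and 34% were higher at 8 h. Against the untreated change 19 rose, where 28.2% of all genes did, with a median of 3.69 beside -0.005 over all tested genes. In the kinetic classes 5 were higher at both hours with a larger late response and 13 were late, where 0.225% and 10% of all genes were. All 20 rose between 1 and 8 h of thapsigargin, where 33.1% of all genes did.

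Atf4, Ddit3 and Atf3, all transcription factors, were among the 5 members raised at both hours. Atf4 was at 531, 539, 398, 417 and 486 CPM at 1 h and at 948, 800, 932, 996 and 1054 CPM at 8 h of thapsigargin, while untreated libraries ranged from 194 to 239 CPM over both hours. Ddit3, which encodes CHOP, was at 55.0, 52.3, 37.4, 35.1 and 45.6 CPM at 1 h and at 491, 412, 462, 496 and 475 CPM at 8 h. Untreated Ddit3 was at 4.53, 4.42, 5.58, 5.66 and 3.87 CPM at 1 h and at 8.29, 8.71, 7.72, 7.76 and 8.32 CPM at 8 h. No groups overlapped for Ddit3, whose response was 3.22 ± 0.12 at 1 h and 5.84 ± 0.13 at 8 h (adjusted p of the interaction 1.1e-10). At 1 h both wild-type libraries lay above the 3 mutant libraries for Atf4, Ddit3 and Chac1, a difference that was not tested at that hour. The same order at 1 h of thapsigargin held for Hspa5, Xbp1 and Per1, which are outside this list. It can arise by chance in so few libraries, and its share over all genes was not counted. Atf3, a repressor of the same family, rose from 3.57 ± 1.17 to 48.9 ± 3.81 CPM (SD, n = 5) with thapsigargin and had an untreated change of 0.27 ± 0.32.

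Chac1, an enzyme that degrades glutathione and a known target of ATF4, was also raised at both hours. It was at 7.82, 7.596, 3.45, 4.00 and 6.34 CPM at 1 h and at 221, 185, 198, 206 and 199 CPM at 8 h of thapsigargin, against 1.03 to 2.23 CPM in the untreated libraries of both hours. The thapsigargin interval was 5.14 ± 0.18 and the interaction 4.66 ± 0.32 (adjusted p = 8.72e-10). Its promoter, chr2:119351042-119351241 (GRCm38.p6, plus strand, RefSeq, 200 bases before the start), is shown for the composite ATF4 and C/EBP motif TGATGNAA, in capitals on the opposite strand, with its first base 193 bases before the start.
Chac1: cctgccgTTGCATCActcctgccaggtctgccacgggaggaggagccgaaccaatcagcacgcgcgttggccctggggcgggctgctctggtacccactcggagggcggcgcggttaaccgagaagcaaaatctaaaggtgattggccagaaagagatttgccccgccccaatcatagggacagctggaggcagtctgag
Nupr1, a small stress-induced nuclear protein, went from 0.282, 0.179, 0.0801, 0.0533 and 0.0556 CPM to 87.2, 68.2, 90.6, 81.3 and 88.1 CPM, a log2 change of 9.30 ± 0.22 within thapsigargin. Its untreated libraries of 1 h held 3 reads in all, so no fold against them is given, and its interaction lost its call without wild-type untreated 1 h replicate 2.

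The late members included Trib3, Ppp1r15a and the transcription factor Atf5. Trib3, a pseudokinase that dampens ATF4 signalling, was at 1.41, 1.07, 0.748, 1.36 and 1.45 CPM at 1 h of thapsigargin, which overlapped the untreated libraries at 0.700 to 1.29 CPM. By 8 h it was at 497, 426, 420, 422 and 396 CPM with thapsigargin and at 0.0838 to 0.528 CPM without. Its interaction was 9.83 ± 0.34 (adjusted p = 1.38e-14). Ppp1r15a, the GADD34 subunit that restores translation by dephosphorylating eIF2α, was higher by 0.37 ± 0.10 at 1 h and by 4.34 ± 0.10 at 8 h. Atf5 was lower by 0.22 at 1 h (log2 -0.22 ± 0.07, adjusted p = 0.0396) and higher by 3.44 ± 0.08 at 8 h.

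Genes for amino acid synthesis and uptake, classical targets of ATF4, responded late as a group. Of 18 tested, 3 were higher and 1 was lower at 1 h, and all 18 were higher at 8 h. Over all genes these shares were 11.8% and 10% at 1 h and 34% higher at 8 h, so the counts at 1 h were near the background. All 18 rose against the untreated change, where 28.2% of all genes did, with a median of 3.37. In the late class were 17 of them, beside 10% of all genes. Slc7a11, the transporter that exchanges cystine for glutamate, was at 0.395, 0.268, 0.374, 0.559 and 0.139 CPM at 1 h and at 179, 195, 178, 167 and 158 CPM at 8 h of thapsigargin. Untreated libraries were at 0.230 to 0.443 CPM at 1 h, overlapping the treated ones, and at 0.0838 to 0.250 CPM at 8 h. The interaction was 10.14 ± 0.43 (adjusted p = 9.3e-15). At 8 h both wild-type thapsigargin libraries lay above the 3 mutant ones, a difference that was not tested at that hour. Such an order can arise by chance in so few libraries, and its share over all genes was not counted. Asns, asparagine synthetase, moved from 64.3, 66.2, 61.1, 68.2 and 69.3 to 912, 813, 892, 920 and 950 CPM, with a response of -0.07 ± 0.05 at 1 h and 3.58 ± 0.05 at 8 h. Phgdh and Shmt2, enzymes of serine and one-carbon metabolism, changed by 3.99 ± 0.09 and 3.02 ± 0.07 against untreated cells, and Cth, which makes cysteine, by 6.73 ± 0.22. Psat1, of the same serine pathway, was the member that was lower at 1 h (-0.35 ± 0.05) and changed least thereafter (0.84 ± 0.07).

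The Slc7a11 promoter, chr3:50443614-50443813 (GRCm38.p6, minus strand, RefSeq), is shown because it holds the motif TGATGNAA on either strand, in capitals, with first bases 66 and 47 bases before the start.
Slc7a11: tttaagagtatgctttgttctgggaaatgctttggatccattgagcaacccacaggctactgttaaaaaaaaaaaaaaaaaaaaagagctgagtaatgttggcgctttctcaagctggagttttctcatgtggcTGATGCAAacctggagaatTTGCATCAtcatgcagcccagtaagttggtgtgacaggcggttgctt
This motif was present in 4 of 18 windows of the amino acid genes (22.22%), in 7 of 25 windows of the stress response regulators (28%) and in 5 of 12 windows of the cytosolic tRNA synthetases (41.67%). It was present in 2.24% of the windows of all tested genes. In the late classes it was in 4.38% of the windows of genes that were higher and in 2.4% of those that were lower.

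The cytosolic tRNA synthetases, which charge tRNAs for translation, followed the amino acid genes. At 1 h 1 of 20 was higher and 3 were lower, and at 8 h 18 were higher and 1 was lower, beside 11.8% and 10% of all genes at 1 h and 34% and 35.7% at 8 h. Against the untreated change 18 rose and 1 fell (28.2% and 30.7% of all genes), with a median of 1.64. In the late class were 15 of them, beside 10% of all genes. Gars changed most, by 2.56 ± 0.06 against untreated cells, and Aars went from 214 to 233 CPM at 1 h to 709 to 860 CPM at 8 h of thapsigargin. Qars, the synthetase for glutamine, fell against the untreated change by 0.33 on the log2 scale (adjusted p = 0.00523), and Farsa did not pass the test (0.10 ± 0.07, adjusted p = 0.286).

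Several genes with the largest late changes were outside these groups. Pck2, the mitochondrial enzyme that makes phosphoenolpyruvate, was at 3.40 to 4.61 CPM at 1 h and between 271 and 292 CPM at 8 h of thapsigargin, with an interaction of 6.42 ± 0.15. Trim66, a chromatin reader, went from 0.254, 0.119, 0.187, 0.400 and 0.139 CPM to 122, 173, 138, 134 and 135 CPM. Apobr, a lipoprotein receptor gene, was at most 0.238 CPM at 1 h and 5.28 to 8.94 CPM at 8 h of thapsigargin. Cass4, a scaffold protein of focal adhesions, had no read in the 5 thapsigargin libraries of 1 h, which allows up to 3 reads, and stood at 14.2 to 17.1 CPM at 8 h. Its interaction lost its call without Nrf2 -/- untreated 1 h replicate 1, so only its levels are given.

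Among genes raised at both hours with the larger response at 8 h were Syt4, Scg2, Vgf and Adamts15. Syt4, a synaptotagmin of vesicle exocytosis, was at 34.8, 37.6, 26.1, 24.3 and 31.4 CPM at 1 h and at 437, 551, 605, 689 and 711 CPM at 8 h of thapsigargin, against 7.40 to 14.7 and 5.66 to 9.97 CPM in untreated libraries. Scg2 (secretogranin) and Vgf, both granule proteins, had interactions of 6.33 ± 0.54 and 3.87 ± 0.28. Adamts15, an extracellular protease, had 5.68 ± 0.37. Neuron markers were read beside them: 6 of 8 tested rose and 2 fell against the untreated change, beside 28.2% and 30.7% of all genes. Their summed level was 262 to 298 CPM at 1 h and 252 to 288 CPM at 8 h of thapsigargin. Such a sum follows its most abundant members, and the part of neurons in these changes was not tested.

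Many ER chaperones and folding enzymes were raised slightly at 1 h, and all were raised at 8 h. Of 22 tested, 15 were higher and 1 was lower at 1 h, with a median response of 0.30. All 22 were higher at 8 h, with a median of 2.42. Over all genes 11.8% and 10% were higher and lower at 1 h, and 34% were higher at 8 h. In the kinetic classes 19 were late and 2 growing, where 10% and 0.225% of all genes were. All 22 rose against the untreated change, where 28.2% of all genes did, with a median of 2.30, although 16 of the 22 rose in untreated cells too, where 21.3% of all genes did. Hspa5, the chaperone BiP that holds the stress sensors inactive, was at 1108, 1159, 965, 982 and 1061 CPM at 1 h and at 9092, 7999, 8865, 9349 and 9672 CPM at 8 h of thapsigargin. Untreated libraries were at 563, 552, 526, 485 and 504 CPM at 1 h and at 891, 860, 813, 866 and 846 CPM at 8 h. No groups overlapped, and the responses were 1.00 ± 0.06 at 1 h and 3.40 ± 0.06 at 8 h (adjusted p = 1.13e-11 and 6.42e-23). Creld2, a disulfide isomerase, was, with Hspa5, 1 of 2 members raised at least 2-fold at both hours, with an interaction of 3.30 ± 0.08. Hsp90b1, the chaperone GRP94, went from 649 ± 57.8 to 6883 ± 494 CPM, and the oxidase Ero1l, with a response of -0.02 ± 0.06 at 1 h, from 30.2 ± 1.11 to 179 ± 9.71 CPM (SD, n = 5).

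The promoters of Hspa5, chr2:34771890-34772089, and Creld2, chr15:88819446-88819645 (both GRCm38.p6, plus strand, RefSeq, 200 bases before the start), are shown for the ER stress element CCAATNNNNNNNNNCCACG, known as a site of ATF6. Capitals mark this element, 65 and 126 bases before the start, the latter on the opposite strand, and in Hspa5 also an AP-1 motif 182 bases before the start.
Hspa5: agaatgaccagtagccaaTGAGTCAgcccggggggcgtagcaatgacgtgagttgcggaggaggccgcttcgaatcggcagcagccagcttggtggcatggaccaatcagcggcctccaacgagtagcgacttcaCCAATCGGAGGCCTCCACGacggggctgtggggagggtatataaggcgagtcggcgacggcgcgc
Creld2: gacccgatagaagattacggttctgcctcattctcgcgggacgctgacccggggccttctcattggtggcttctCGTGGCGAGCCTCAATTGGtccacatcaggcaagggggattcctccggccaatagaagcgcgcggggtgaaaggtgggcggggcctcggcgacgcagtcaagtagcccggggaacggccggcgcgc
The element was present in 7 of 22 windows of the chaperone genes (31.82%), in 2 of 17 windows of the genes for XBP1 and ER-associated degradation (11.76%) and in 0.13% of the windows of all tested genes. It was in 9 of 1485 windows of the late genes that were higher and in 0 of 1500 of those that were lower.

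XBP1 and the machinery that removes misfolded proteins from the ER responded mostly late. Of 20 tested, 6 were higher and 1 was lower at 1 h, 19 were higher at 8 h, and 18 rose against the untreated change with a median of 1.19. Of all genes 11.8% were higher at 1 h and 34% at 8 h, and 28.2% rose against the untreated change. Xbp1 itself was at 170, 176, 136, 128 and 162 CPM at 1 h and at 398, 375, 376, 370 and 414 CPM at 8 h of thapsigargin, and at 41.7 to 54.0 and 103 to 112 CPM without. No groups overlapped. Its interval was 1.33 ± 0.07 with and 1.16 ± 0.07 without thapsigargin, so its response of 1.70 ± 0.07 at 1 h was 1.86 ± 0.07 at 8 h and the interaction was not called (0.17 ± 0.10, adjusted p = 0.16). The gene counts tested here do not separate spliced from unspliced Xbp1, and the deposited transcript estimates were not examined for it. Derl3, a derlin of the degradation channel, went from 1.36, 2.03, 1.55, 1.68 and 1.64 CPM to 73.7, 59.6, 68.5, 69.3 and 73.8 CPM, and Herpud1, a scaffold of that complex, from 105 ± 19.03 to 1079 ± 82.3 CPM (SD, n = 5). Edem1 and Sel1l were late, with responses of -0.04 ± 0.06 and 0.10 ± 0.05 at 1 h and 2.83 ± 0.06 and 3.23 ± 0.05 at 8 h.

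Genes for translocation into the ER and for COPII vesicles, which carry cargo out of it, responded at 8 h. At 1 h 0 of 23 were called higher and 5 were called lower by edgeR, where 11.8% and 10% of all genes were, and at 8 h 19 were higher and 2 lower, where 34% and 35.7% were. Against the untreated change 19 rose and none fell, where 28.2% and 30.7% of all genes did, with a median of 1.56. Sec24d, a cargo adaptor of the COPII coat, was at 11.7, 15.5, 11.2, 11 and 12.9 CPM at 1 h, overlapping the untreated libraries at 10.46 to 14.5 CPM, and at 390, 348, 383, 391 and 391 CPM at 8 h of thapsigargin. Its interaction was 4.54 ± 0.13 (adjusted p = 1.38e-17). Sec61b, a subunit of the translocation channel, was lower at 1 h by 0.41 on the log2 scale (-0.41 ± 0.07) and higher at 8 h (1.41 ± 0.07).

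**Figure D3:**
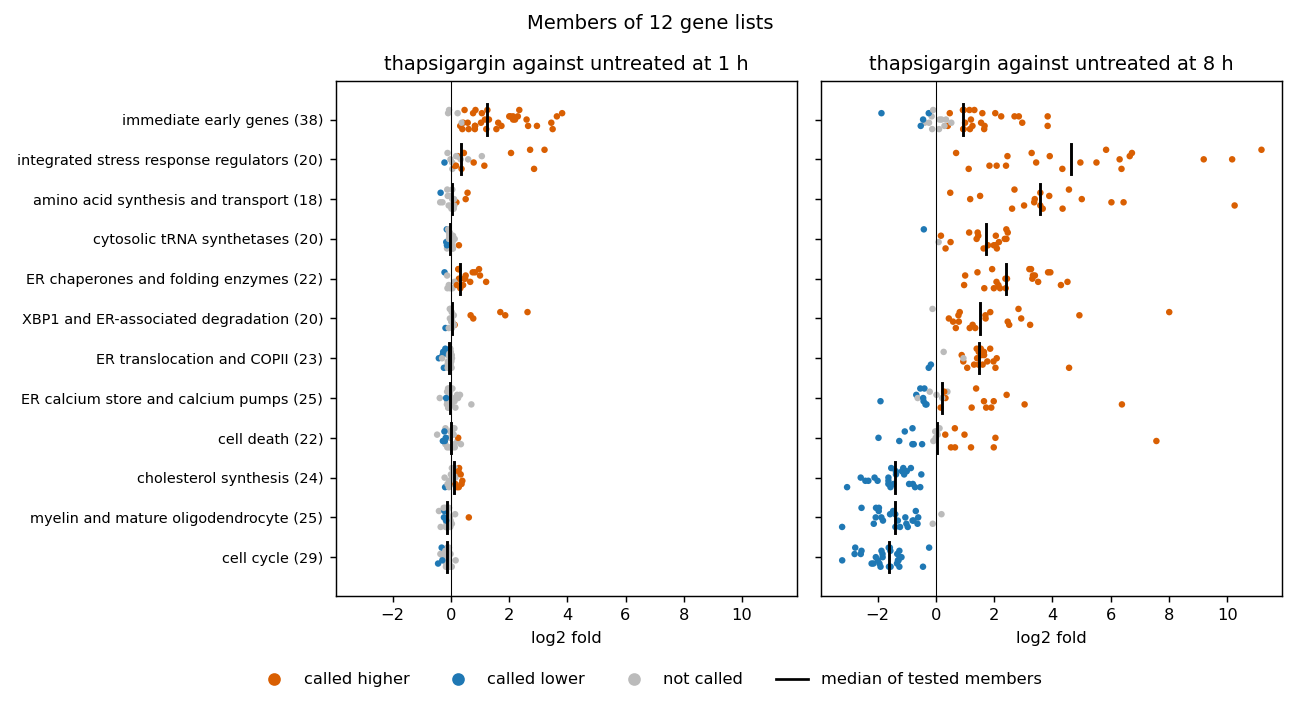
Log2 response to thapsigargin of the tested members of 12 gene lists at 1 h and at 8 h; each point is 1 gene and the bars are list medians. Immediate early genes have the highest median at 1 h (1.24), amino acid genes lie near 0 at 1 h (0.04) and at a median of 3.58 at 8 h, and the medians of the cholesterol, myelin and cell cycle lists are below -1 at 8 h.

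Calcium handling genes were not called higher at 1 h: 0 of 25 were higher and 1 was lower by edgeR, where 11.8% and 10% of all genes were. Against the untreated change 10 rose and 7 fell, beside 28.2% and 30.7% of all genes, with a median of 0.28. Atp2a2, which encodes the pump SERCA2, was at 284, 365, 269, 246 and 217 CPM at 1 h and at 794, 1140, 894, 1059 and 1267 CPM at 8 h of thapsigargin, while untreated libraries ranged from 174 to 414 CPM. Its interaction was 1.74 ± 0.30 (adjusted p = 0.000108). The calcium release channel Itpr1 went from 17.7 ± 2.34 to 107 ± 10.2 CPM (SD, n = 5), and its relative Itpr2 fell, with an interaction of -1.93 ± 0.12. The plasma membrane pump Atp2b1 rose (2.03 ± 0.06) and the entry channel Orai1 fell (-0.89 ± 0.11).

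Of 22 cell death genes 10 were higher and 8 lower against the untreated change (median 0.23), and 1 was higher and 4 lower at 1 h. Of all genes 28.2% and 30.7% were higher and lower in that contrast and 11.8% and 10% at 1 h, so the share that was lower against the untreated change was near the background. Hrk, an activator of apoptosis of the BH3-only family, was at 0.452, 0.208, 0.454, 0.213 and 0.306 CPM at 1 h and at 39.8, 34.8, 44.1, 41.7 and 42.8 CPM at 8 h of thapsigargin, with untreated libraries between 0.0268 and 0.415 CPM. Bbc3, the BH3-only protein PUMA, rose from 10.8 ± 1.55 to 31.1 ± 3.17 CPM (SD, n = 5), with an interaction of 2.08 ± 0.13. The survival gene Bcl2 also rose (0.92 ± 0.17), and Bcl2l1, another survival gene, fell (-1.05 ± 0.09). Bcl2l11, which encodes BIM, had an interaction of 0.31 ± 0.12 (adjusted p = 0.03) that lost its call in 13 of 33 alternative settings.

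Programs of the maturing oligodendrocyte ran in the opposite direction in treated and untreated cells. Of 25 myelin and mature oligodendrocyte genes, 18 rose and 1 fell in untreated cells between 1 and 8 h (21.3% and 17.3% of all genes). With thapsigargin 3 rose and 18 fell (33.1% and 34.8% of all genes). Against the untreated change 20 fell and none rose (median -1.28), where 30.7% of all genes fell. At 1 h 1 was higher and 3 were lower, where 11.8% and 10% of all genes were, so the count lower was near the background. Mbp, which encodes myelin basic protein, was at 149, 192, 146, 154 and 123 CPM at 1 h and at 112, 82.2, 85.7, 76.9 and 81.7 CPM at 8 h of thapsigargin. In untreated libraries it went from 167, 207, 165, 149 and 146 CPM to 379, 352, 343, 274 and 359 CPM. At 1 h the groups overlapped and at 8 h they were apart. The change of Mbp was -0.80 ± 0.10 with and 1.04 ± 0.10 without thapsigargin, and its interaction was -1.84 ± 0.14 (adjusted p = 5.1e-10). Myrf, the transcription factor of myelination, did not pass the test (-0.51 ± 0.29, adjusted p = 0.141). In bulk libraries fewer cells of a type and less RNA per cell cannot be told apart.

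Cholesterol synthesis, which supplies myelin membrane, showed the same reversal. In untreated cells 23 of 24 genes rose between hours (median 0.78), with thapsigargin 21 fell and 1 rose (median -0.81), and all 24 fell against the untreated change. The shares over all genes were 21.3% rising in untreated cells, 34.8% falling with thapsigargin and 30.7% falling against the untreated change. At 1 h 8 were higher and 1 was lower than in untreated cells, where 11.8% and 10% of all genes were. Hmgcs1, an enzyme at the start of the pathway, was at 2852, 3269, 2842, 3019 and 3059 CPM at 1 h and at 2159, 1706, 2023, 2205 and 2303 CPM at 8 h of thapsigargin. Untreated libraries went from 3165, 3525, 3213, 3145 and 3222 CPM to 6783, 6807, 6475, 6096 and 6098 CPM. The 1 h groups overlapped and the 8 h groups did not, and the interaction was -1.52 ± 0.10 (adjusted p = 1.65e-12).

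**Figure D4:**
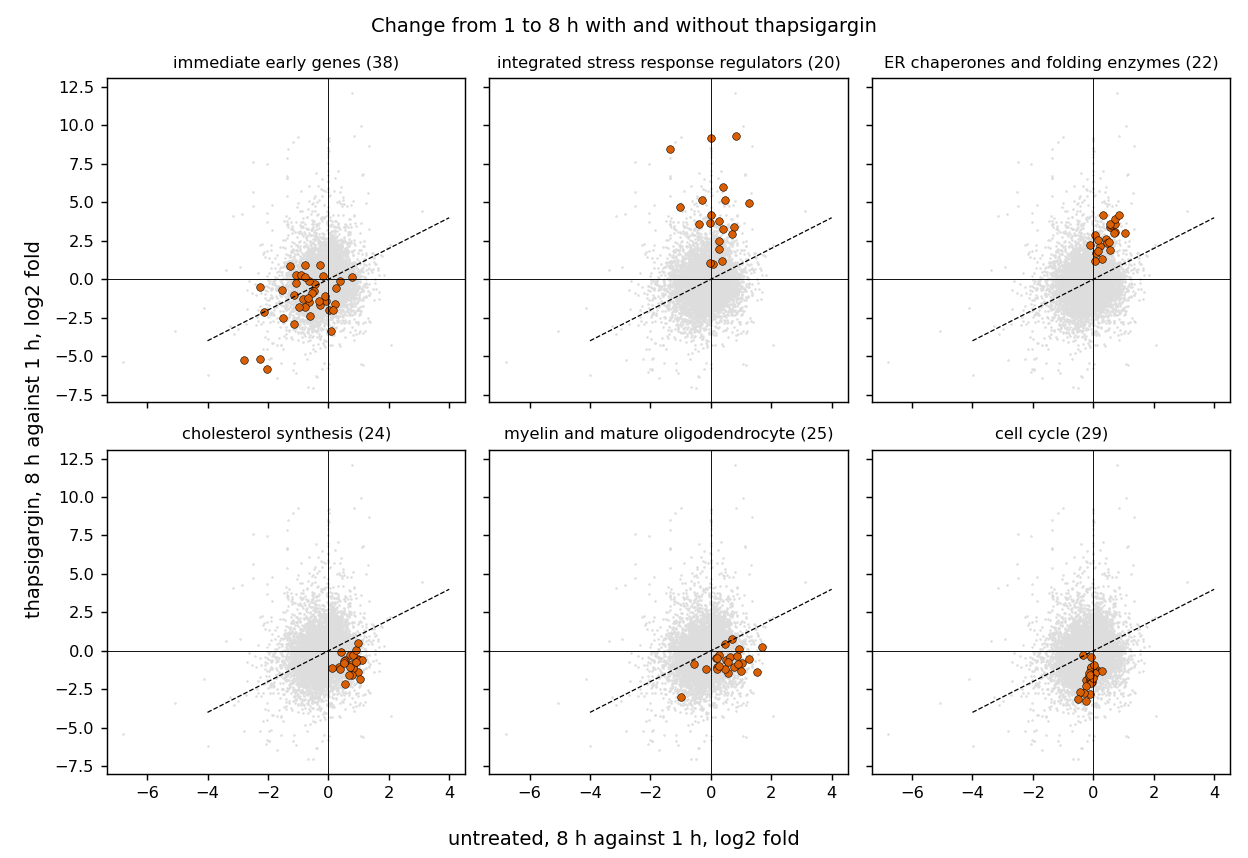
Change from 1 to 8 h with thapsigargin (vertical axis, log2) against the change from 1 to 8 h without (horizontal axis, log2) for the tested members of 6 gene lists; the dashed line marks equal change. Cholesterol genes and most myelin genes lie to the right of 0 and below the line, chaperone genes above it, and many immediate early genes are below 0 on both axes.

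Cell cycle genes fell late, with little change in untreated cells. All 29 fell with thapsigargin between hours, where 34.8% of all genes did, and 5 fell in untreated cells, where 17.3% did. Against the untreated change 28 fell (median -1.60), where 30.7% of all genes did. At 1 h 3 were lower and none higher, where 10% and 11.8% of all genes were, so the count lower was near the background. Mcm5, a subunit of the replicative helicase, was at 55.1, 42.5, 63.2, 62.2 and 66.8 CPM at 1 h and at 7.27, 6.68, 9.17, 10.3 and 7.06 CPM at 8 h of thapsigargin, with untreated libraries between 49.1 and 72.5 CPM. Mki67, a marker of dividing cells, went from 244 ± 55.2 to 64.7 ± 11.6 CPM (SD, n = 5). The fall of histone genes below untreated cells at 8 h stood beside these values. Of 59 histone genes 39 were lower and 8 higher at 8 h, beside 35.7% and 34% of all genes.

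Of 23 precursor genes 11 were lower and 4 higher against the untreated change (median -0.28), beside 30.7% and 28.2% of all genes. Pdgfra, the growth factor receptor of precursors, fell with and without thapsigargin, by 1.11 and 1.05 on the log2 scale, from 1066 ± 176 to 492 ± 53.9 CPM and from 1141 ± 153 to 550 ± 67.1 CPM (SD, n = 5). Its interaction was -0.06 ± 0.11 and was not called. The lineage factors Sox10 (-1.04 ± 0.09) and Olig2 (-0.85 ± 0.09) fell, and Id2, an inhibitor of differentiation, rose (1.76 ± 0.10).

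The genes with the strongest late falls were of varied function. Kif19a, a kinesin of cilia, was at 49.2, 58.1, 47.02, 53.4 and 47.3 CPM at 1 h and at 3.27, 2.83, 2.45, 2.18 and 2.85 CPM at 8 h of thapsigargin, an interaction of -4.61 ± 0.11. Plekhf1, a lysosome-associated adaptor, had -4.71 ± 0.13, and Ppp1r3c, which targets a phosphatase to glycogen, had -4.15 ± 0.22 after a response of 0.66 ± 0.13 at 1 h. Alox5, the enzyme that starts leukotriene synthesis, Sema4a, a semaphorin, the myosin Myo18b, the membrane protease Rhbdl2 and Fam205a1 had interactions between -4.64 and -4.34.

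In other stress pathways the shares called against the untreated change were closer to those over all genes, of which 28.2% rose and 30.7% fell. Of 21 targets of NRF2, 6 rose and 9 fell against the untreated change (median -0.13). At 1 h 10 of the 21 were lower and none higher, where 10% and 11.8% of all genes were. At 8 h 13 were lower and 5 higher (median -0.33), where 35.7% and 34% of all genes were. By title 3 of 5 libraries in each condition lack NRF2, so these counts do not describe the response of cells with NRF2. Hmox1, heme oxygenase, was the exception in size: it was at 10.2, 10.04, 9.70, 7.73 and 8.62 CPM at 1 h and at 76.3, 59.1, 70.1, 77.6 and 81.7 CPM at 8 h of thapsigargin, so the 3 mutant libraries at 8 h overlapped the 2 wild-type ones. Of 18 cytosolic heat shock genes 4 rose and 7 fell (median -0.12), with Hspa8, a constitutive chaperone, lower (-1.29 ± 0.07). Serpinh1, a collagen chaperone that resides in the ER, was higher (4.44 ± 0.39) at a low level, from 0.273 ± 0.0402 to 3.13 ± 0.489 CPM with thapsigargin (SD, n = 5). Of 18 autophagy genes 8 rose and 4 fell (median 0.14), with Sqstm1 higher (0.91 ± 0.08) and Tfeb lower (-1.97 ± 0.12).

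Median responses of NF-κB pathway genes were small at both hours. Tested members ranged from -0.4 to 1.23 at 1 h and from -1.07 to 1.45 at 8 h (log2). Of 22 listed 10 could be tested. Among these 7 were higher and 1 was lower at 1 h (median 0.42), and 6 were higher and 2 lower at 8 h (median 0.30). Against the untreated change 1 rose and 1 fell. Of all genes 11.8% and 10% were higher and lower at 1 h and 34% and 35.7% at 8 h. Against the untreated change 28.2% of all genes rose and 30.7% fell. Tnfaip3, the feedback inhibitor A20, was higher at 1 h (0.81 ± 0.13) and lower at 8 h (-1.07 ± 0.16). Cxcl2 and Cxcl10 had no read in any library, and Il6 and Tnf held 16 and 2 reads over all 20.

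Markers of other cell types moved in both directions. Against the untreated change 30.7% of all genes fell and 28.2% rose. Of 9 astrocyte markers tested 5 fell and 2 rose in that contrast. Their summed level was 336 to 381 CPM at 1 h and 176 to 197 CPM at 8 h of thapsigargin, against 397 to 428 and 549 to 616 CPM in untreated cells. The 2 microglia markers tested rose against the untreated change, and of 3 vascular and fibroblast markers 2 rose and 1 fell. The neuron markers, of which 6 of 8 rose (median 1.10), had a summed level of 315 to 356 CPM at 1 h and 317 to 454 CPM at 8 h in untreated cells. Summed microglia markers were 3.95 to 10.51 CPM over the 20 libraries, and summed vascular and fibroblast markers 1.33 to 5.86 CPM. The part of these cells in the changes above was not tested, and the 6 microglia markers at 0 are named above.

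The time course was not found to differ by genotype. No gene was called for the genotype difference in the interaction with edgeR or with DESeq2, and 367 of 15590 had an unadjusted p below 0.05 with edgeR. With 2 wild-type and 3 mutant libraries per condition this does not show that the genotypes responded alike. Every library with high Xist was labelled Nrf2 -/-, so sex was not balanced between the genotypes. Within genotypes, the thapsigargin interval was called for 7947 genes in the wild-type and for 9473 genes in the mutant libraries. Without the libraries of conflicting labels the interaction held 8819 calls, and without Nrf2 -/- untreated 8 h replicate 3 it held 9399.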

How the data were processed

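RNA-seq libraries were deposited as read counts per gene and as estimated counts per transcript. Per the submitters' processing notes, STAR, featureCounts and kallisto were used, and no version, genome build, annotation or strand setting is given in the sources used here. Gene read counts as deposited by the authors were tested. From them, CPM (scaled by TMM factors), condition means and contrasts were computed with edgeR 4.0.16 in R 4.3.3 (quasi-likelihood test, additive genotype term from the title, filterByExpr with a minimum count of 10). P-values were adjusted by Benjamini-Hochberg over 15590 genes and called below 0.05. Values after ± are SE for log2 differences and SD for CPM. Deposited estimated counts were summed per gene and rounded for an alternative fit. DESeq2 1.42.0 was another alternative. The model was run on simulated counts in which a small set of genes changed, at 8 h of thapsigargin only. Far more genes changed in these data, so that run does not check the scaling used here. Replicate pairs differed by more than sampling noise (chi-square per degree of freedom 13.4 to 64.3). Named genes were, per class, up to 8 protein-coding genes with the largest interaction (maintained: mean response) among those reaching a mean of 5 CPM whose thapsigargin libraries of 1 and 8 h did not overlap (maintained: treated and untreated libraries), and list members. The members and lists were chosen with earlier results of these data known. Promoters came from RefSeq (GRCm38.p6), with windows for 11032 of 15590 tested genes. Some list members are not reported here.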

Additional observations from a re-analysis of the deposited data

Results flagged for a closer look

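Single libraries stood apart from the other 4 of their condition in 4 of 96 groups examined (24 genes in 4 conditions), judged by the gap to the nearest library relative to the range. Chance gives about 1 in 20 such groups. Egr1 was at 94.65 CPM in wild-type thapsigargin 1 h replicate 1, with a gap of 0.758 of the range. Chac1 was at 2.225 CPM and Hmgcs1 at 3525 CPM in wild-type untreated 1 h replicate 2, with gaps of 0.725 and 0.797 of the range. Mbp was at 111.5 CPM in wild-type thapsigargin 8 h replicate 1, with a gap of 0.745 of the range. In each case the library was the highest of its condition.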

How the results depend on the processing

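No paired analysis was possible because the labels give no replicate numbers, and those used here follow the order of the libraries. Whether libraries of different treatments shared a culture is not given, and the fit did not allow for it. Of 363 named or listed genes with a called interaction, 298 kept the call and sign in every alternative setting that tested them (33 settings in all), 65 lost the call in at least 1 and 0 changed sign. The interaction was called for 9323 genes with DESeq2 and 9003 with kallisto estimated counts. Wild-type libraries alone gave 2564 calls for the untreated interval, 6102 for the interaction and 849 at 1 h, and Nrf2 -/- libraries alone gave 1387 at 1 h, with fewer libraries fitted. With no low-count filter 16 genes were called for the genotype difference. DESeq2 gave 1 maintained lower, 1 growing lower, 5 higher then lower and 2 lower then higher genes, and total-count scaling gave 3 declining higher and 1 maintained lower. A 1.5-fold minimum gave 94 transient, 12 declining, 64 maintained, 87 growing and 2444 late genes among those higher, 57 transient, 11 maintained, 13 growing and 2661 late among those lower, 46 higher then lower and 21 lower then higher. A 4-fold minimum gave 10, 0, 10, 8 and 557 for the higher classes, 2 transient, 0 maintained and 475 late lower, and 0 and 0 for the mixed classes. Leaving out 1 library at a time gave 10236 to 10774 calls for the thapsigargin interval, 5427 to 6446 for the untreated interval, 8929 to 9399 for the interaction, 2518 to 3763 at 1 h, 10514 to 10987 at 8 h and 0 to 0 for the genotype difference. The higher classes then held 26 to 43 transient, 3 to 6 declining, 23 to 33 maintained, 31 to 38 growing and 1526 to 1640 late genes. The lower classes held 15 to 27 transient, 0 to 0 declining, 0 to 5 maintained, 0 to 2 growing and 1551 to 1671 late genes, with 5 to 9 higher then lower and 4 to 8 lower then higher. The causes were not tested. Genes under about 1 CPM rest on few reads, which limits their folds.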
